A study of Mus musculus with 4 samples.

Results

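Polyamine metabolism was followed through 10 genes picked by name: Odc1, Srm and Sms for synthesis, Sat1, Smox and Paox for catabolism, and Oaz1, Oaz3, Azin1 and Azin2 for antizyme control. Each had a row of its own in the deposited table of 44509 gene symbols, and all 10 passed the low-value filter that kept 19837 genes. The RNA came from testis tissue of mice with oligozoospermia induced by busulfan, an alkylating agent toxic to dividing germ cells. A group of 2 libraries had busulfan alone (busulfan 1 and busulfan 2), and a group of 2 had busulfan and then Cus-1, a resin glycoside from a cuscutae extract (Cus-1 1 and Cus-1 2). The series title names SAT1 between p38 MAPK and GPX4 in a path to ferroptosis, cell death driven by iron and lipid peroxides. The labels give no strain, age, dose or time and do not say whether the libraries of a group were separate animals, so p-values here reflect just the variation among these libraries, which can be technical. The sample titles begin with BPA for busulfan and with CUS2 for treated samples, and neither is explained there. There was no group without busulfan.

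Putrescine, spermidine and spermine are small positively charged amines that bind nucleic acids and are needed for cell growth. ODC1 makes putrescine from ornithine, and the synthases SRM and SMS lengthen it to spermidine and spermine. SAT1 acetylates spermidine and spermine, PAOX oxidises the acetylated forms, and SMOX oxidises spermine directly, the oxidases releasing hydrogen peroxide. Antizymes bind ODC1 and send it to the proteasome, and antizyme inhibitors, which resemble ODC1 but lack its activity, hold antizymes away from it. Spermatids have an antizyme of their own, OAZ3, and AZIN2 is the inhibitor found mainly in testis and brain.

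An antizyme is made only when the ribosome slips forward by 1 base near the start of its message, a step that polyamines promote. The annotation (GENCODE M21, GRCm38) records the slip as 1 base left out of the coding sequence. The transcripts around it show what the somatic and the spermatid antizyme share. Each line runs 5′ to 3′ over 20 bases on either side of the base left out, with the 3 bases before and after it in capitals.
Oaz1: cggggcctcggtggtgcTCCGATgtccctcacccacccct
Oaz2: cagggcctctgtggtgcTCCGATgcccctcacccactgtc
Oaz3: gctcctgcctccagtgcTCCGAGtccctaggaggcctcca
The base left out is at position 80828295 of chromosome 10 (plus strand) for Oaz1, 65686272 of chromosome 9 (plus strand) for Oaz2 and 94436034 of chromosome 3 (minus strand) for Oaz3. Position by position, Oaz1 and Oaz2 were identical at 33 of 40 bases, and Oaz1 and Oaz3 at 15 of 40.

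Of the 10 members, 0 passed the adjusted threshold of limma (adjusted p from 0.156 to 0.808), as did 0 (0%) of all 19837 tested genes, of which 5551 were at an unadjusted p under 0.05. At an unadjusted limma p under 0.05 there were 4 members, Odc1 higher and Srm, Sat1 and Smox lower with Cus-1, beside 28.0% of all tested genes (18.0% higher and 9.96% lower). In 9 of 10 members the values of the groups did not overlap, 4 higher and 5 lower, beside 68.4% of all tested genes (36.6% higher and 31.7% lower). A gene taken at large from this table was thus also more often apart than not. The count of 4 was 0 without busulfan 1 and 1 without Cus-1 1. By role, the median log2 fold change, Cus-1 minus busulfan, was -0.48 for synthesis, -0.69 for catabolism and 0.52 for antizyme control, against 0.04 for all tested genes. Those medians turned to 0.25 for synthesis and 0.04 for catabolism when libraries were centred on Sertoli cell markers, and to -0.68 for antizyme control when centred on elongating spermatid markers. Under these scalings the median of all tested genes itself moved to 0.77 and -1.16. Each of these scalings shifts all genes of a library by the same amount. The order of the role medians and the median of all tested genes therefore could not change, and it is no test of stability. Values given below under these scalings are relative to that shift.

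**Figure D1:**
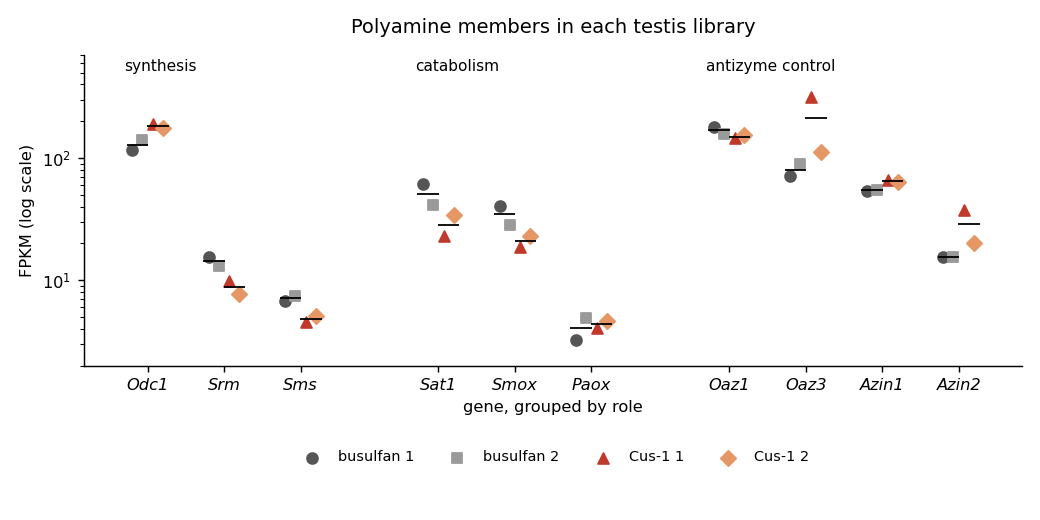
FPKM (log axis) of the 10 members in the 4 libraries, grouped by role; symbols are single libraries and black lines group means (n = 2). Groups are apart in all members but Paox, and Oaz3 and Azin2 are far higher in Cus-1 1 than in the other 3 libraries.

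In libraries of a whole tissue, fewer cells of a type and less RNA per cell cannot be told apart. FPKM is scaled to the fragments of the library, so a gene can also be lower because other genes took more of them. That cannot be told apart here either. Marker levels are therefore given beside the members, in libraries with an estimated depth of 12.7 to 13.8 M fragments and a summed FPKM of 726041 to 742689. All 8 Sertoli markers were lower in both libraries given Cus-1 than in either given busulfan alone, and their summed level was 3498 to 4905 FPKM after busulfan and 2318 to 2849 with Cus-1. Of 7 macrophage markers 5 were lower in both, with sums of 323 to 439 and 186 to 249 FPKM. The 6 Leydig markers summed to 25500 to 26040 and 12690 to 18480 FPKM, with 3 lower in both. All 6 spermatocyte markers were higher in both (451 to 772 against 1098 to 1166 FPKM), as were all 6 round spermatid markers (154 to 224 against 312 to 496 FPKM) and all 8 elongating spermatid markers (3148 to 3265 against 4275 to 11850 FPKM). The 7 spermatogonial markers summed to 177 to 199 and 165 to 169 FPKM, with 2 higher and 3 lower in both. The 6 peritubular and endothelial markers summed to 129 to 195 and 111 to 142 FPKM, with 2 lower in both. Over all tested genes, 36.6% were higher in both and 31.7% lower in both. In each of these 8 lists 0 genes were listed at 0 and 0 passed the adjusted threshold of limma.

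The synthesis genes lay on both sides of 0. Odc1, the rate-limiting first enzyme, was at 116 and 141 FPKM after busulfan and at 192 and 177 FPKM with Cus-1. Both Cus-1 libraries lay above both busulfan libraries, and the gap between the groups was wider than the gap within either. The log2 fold change was 0.53 (SE 0.17, 95% interval 0.10 to 0.96, limma adjusted p = 0.156), higher than in 73.8% of tested genes. Centring on elongating spermatid markers turned it to -0.67, where the median of all tested genes was -1.16. Centring on Sertoli markers put it at 1.26 with a limma adjusted p of 0.0438. Under that scaling the median of all tested genes was 0.77, and 5348 of 19837 genes passed the adjusted threshold of limma.

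Srm, the spermidine synthase, went the other way, at 15.5 and 13.2 FPKM after busulfan and 9.83 and 7.72 FPKM with Cus-1. Every Cus-1 value was below every busulfan value. Its log2 fold change was -0.66 (SE 0.21, 95% interval -1.19 to -0.12, limma adjusted p = 0.156), and 0.08 when centred on Sertoli markers. Sms, the spermine synthase, was at 6.80 and 7.44 FPKM against 4.54 and 5.11 FPKM, again with no overlap. Its log2 fold change was -0.48 (SE 0.20, 95% interval -1.0 to 0.04, limma adjusted p = 0.192), and 0.25 when centred on Sertoli markers. Within a library, the log2 level of Odc1 minus that of Srm was 2.82 and 3.32 after busulfan and 4.15 and 4.35 with Cus-1, a difference of 1.18 that was apart between the groups (exact two-sided permutation p = 0.333, the smallest that 2 against 2 libraries allow).

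The stretches upstream of the Odc1 and Sat1 start sites are printed because these genes, the entry to synthesis and the entry to catabolism, lay on opposite sides of 0. Each holds the 250 bases before the start in RefSeq (GRCm38.p6), 5′ to 3′ along the gene, at chr12:17544623-17544872 (plus strand) for Odc1 and chrX:155216450-155216699 (minus strand) for Sat1. GENCODE starts the Odc1 gene at 17544794, inside its stretch. Capitals mark TGACG, the short site bound by CREB and CREM, searched on both strands, with CACGTG, the E-box bound by MYC, searched alike.
Odc1: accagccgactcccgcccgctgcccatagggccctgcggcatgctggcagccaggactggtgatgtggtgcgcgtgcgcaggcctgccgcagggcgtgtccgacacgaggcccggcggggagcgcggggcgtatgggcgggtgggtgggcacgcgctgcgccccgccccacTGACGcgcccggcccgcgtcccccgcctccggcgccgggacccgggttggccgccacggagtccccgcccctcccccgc
Sat1: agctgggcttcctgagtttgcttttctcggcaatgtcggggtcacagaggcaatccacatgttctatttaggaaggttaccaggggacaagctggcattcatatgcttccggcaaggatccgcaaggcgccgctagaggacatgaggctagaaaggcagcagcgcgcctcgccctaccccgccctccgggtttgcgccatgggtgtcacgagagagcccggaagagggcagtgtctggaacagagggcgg
TGACG occurred 1 time in the Odc1 stretch and 0 times in that of Sat1, and CACGTG in neither. The TGACG of Odc1 begins at 17544794, the GENCODE start. It thus lies before the RefSeq start but, by GENCODE, at the first bases of the gene and not upstream of it. Of 32851 promoters of this length 17.8% held TGACG and 6.02% CACGTG. Of the 10 members 6 had a promoter in the table, with 2 TGACG in Oaz1 and 1 CACGTG in 1 of the 2 Sms entries.

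Sat1, the rate-limiting acetyltransferase of catabolism, which lies on chromosome X between 155213132 and 155216449, stood at 61.2 and 41.0 FPKM after busulfan and at 22.9 and 34.0 FPKM with Cus-1. The groups did not overlap, but busulfan 2 and Cus-1 2 lay closer to each other than either lay to its own partner. The mean was 51.1 ± 14.3 FPKM after busulfan alone and 28.5 ± 7.90 FPKM after Cus-1 (± SD, n = 2). The log2 fold change was -0.82 (SE 0.29, 95% interval -1.56 to -0.08, limma adjusted p = 0.165), and 3.51% of tested genes had a lower one. It was -0.54 without busulfan 1, -0.55 without Cus-1 1 and -1.10 without either of the other libraries.

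Set against the mean log2 level of the macrophage markers, Sat1 was at 0.31 and 0.21 after busulfan and at 0.20 and 0.32 with Cus-1, a difference between groups of 0.00. Against the Sertoli markers it was at -0.81 and -1.01 after busulfan and -1.21 and -0.80 with Cus-1, a difference of -0.09, and against the Leydig markers the difference was -0.36, with overlap in each case (exact permutation p = 1 for all 3). Against the peritubular and endothelial markers it was 1.80 and 1.64 and then 1.12 and 1.38, apart by -0.47 (exact permutation p = 0.333). Relative to the macrophage markers, all 4 libraries thus lay between 0.20 and 0.32. The part of these cells in the result was not tested.

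The 3 tested genes with the pattern nearest to Sat1 over the 4 libraries were Slc45a3 (distance 0.0273), the interferon-induced membrane protein gene Ifitm3 (0.0308) and Ttc7b (0.0374). Distance was the root mean square distance of centred log2 values, among 9388 genes at 10 FPKM or more, with a median of 0.52. These genes were picked as the smallest distances, so they lie below that median by construction. Ifitm3 was at 93.2 and 65.04 FPKM after busulfan and 35.3 and 54.9 FPKM with Cus-1.

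Smox, the spermine oxidase, was at 40.7 and 28.5 FPKM after busulfan and at 18.8 and 22.8 FPKM with Cus-1, in the same order of libraries as Sat1. Its log2 fold change was -0.69 (SE 0.23, 95% interval -1.28 to -0.10, limma adjusted p = 0.160), -0.44 without busulfan 1 and 0.04 when centred on Sertoli markers. Relative to the macrophage markers Smox was at -0.27 and -0.31 after busulfan and -0.07 and -0.23 after Cus-1, apart by 0.13, and relative to the peritubular and endothelial markers it was apart by -0.34 (exact permutation p = 0.333 for both). Paox, the oxidase of acetylated polyamines and the least abundant member in both groups, was at 3.23 and 4.91 FPKM against 4.08 and 4.63 FPKM. Its groups overlapped (log2 fold change 0.10, SE 0.26, 95% interval -0.57 to 0.77, limma adjusted p = 0.808), so neither direction was resolved. That value was -0.14 without busulfan 1, -0.02 under quantile normalization and -1.10 when centred on elongating spermatid markers.

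Of the relatives of Sat1, Sat2, a related acetyltransferase, was at 58.5 and 41.4 FPKM after busulfan and 26.2 and 29.0 FPKM after Cus-1 (log2 fold change -0.81 with SE 0.21, limma adjusted p = 0.152). The log2 level of Sat1 minus that of Sat2 was 0.06 and -0.01 after busulfan and -0.19 and 0.22 with Cus-1, with overlap (exact permutation p = 1). Satl1, a further member of the family chosen after its values were seen, was at 1.59 and 1.93 FPKM after busulfan and at 6.53 and 2.74 FPKM with Cus-1. Its log2 fold change was 0.95 (SE 0.39, 95% interval -0.06 to 1.95, limma adjusted p = 0.189), and 0.44 when Cus-1 1 was left out. It made up 1.31% and 2.29% of the summed FPKM of the 3 genes after busulfan and 11.8% and 4.16% with Cus-1. That sum itself was 121 and 84.4 FPKM and then 55.6 and 65.8 FPKM.

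**Figure D2:**
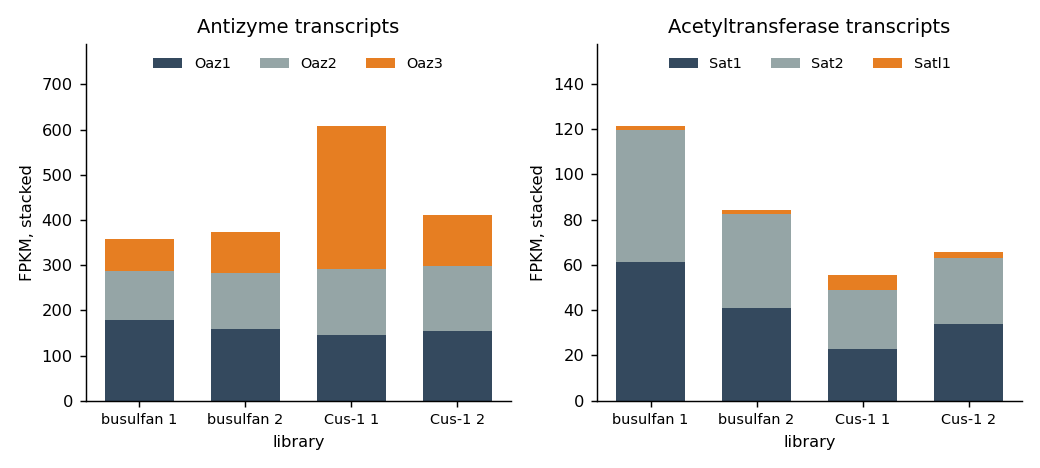
FPKM of Oaz1, Oaz2 and Oaz3 (left) and of Sat1, Sat2 and Satl1 (right), stacked for each of the 4 libraries. Oaz3 makes up 52.1% of the antizyme bar in Cus-1 1 and 19.8% to 27.2% in the other 3, with Oaz1-ps left out, and the acetyltransferase bar is lower in both Cus-1 libraries.

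The ratio of Sat1 to Odc1 in FPKM, which does not depend on how libraries are scaled, was 0.530 and 0.292 after busulfan and 0.119 and 0.192 with Cus-1. Both Cus-1 ratios were below both busulfan ratios. On the log2(FPKM + 1) scale the difference was -1.35 (exact two-sided permutation p = 0.333, the smallest possible).

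Of the antizyme control members, Oaz3, Azin1 and Azin2 lay higher in both libraries given Cus-1 and Oaz1 lay lower, and 0 passed the adjusted threshold of limma. Centred on Sertoli markers (median of all tested genes 0.77) Oaz1 turned higher, and centred on elongating spermatid markers (median -1.16) Azin1 and Azin2 turned lower. Oaz1, the antizyme of most cells, was at 179 and 159 FPKM after busulfan and at 145 and 155 FPKM with Cus-1. The groups were narrowly apart, with a log2 fold change of -0.17 (SE 0.15, 95% interval -0.56 to 0.22, limma adjusted p = 0.466), and 0.57 when centred on Sertoli markers. Its level is uncertain because the processed pseudogene Oaz1-ps, chosen after its values were seen, matched the Oaz1 transcript at 683 of 685 aligned bases and was listed at 148, 144, 115 and 131 FPKM in the libraries busulfan 1 and 2 and Cus-1 1 and 2. Fragments of either gene can be credited to the other, and the sum of both was 327 and 303 FPKM after busulfan and 261 and 285 FPKM with Cus-1. How fragments matching both genes were counted is not known, so the sum can hold the same fragments again.

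Oaz3, the spermatid antizyme, was at 70.7 and 89.9 FPKM after busulfan and at 316 and 111 FPKM with Cus-1. Both Cus-1 libraries were above both busulfan libraries, but Cus-1 2 lay far closer to busulfan 2 than to Cus-1 1. The log2 fold change was 1.23 (SE 0.51, 95% interval -0.07 to 2.53, limma adjusted p = 0.188), the highest of the members. It was 0.48 when Cus-1 1 was left out and 1.98 when Cus-1 2 was, so its size turned on 1 library. Within a library, log2 Oaz3 minus log2 Oaz1 was -1.33 and -0.81 after busulfan and 1.12 and -0.47 with Cus-1, a difference of 1.39 (exact two-sided permutation p = 0.333, the smallest possible) that became 0.60 when Cus-1 1 was left out and 2.19 when Cus-1 2 was.

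Relative to the mean log2 level of the 8 elongating spermatid markers, Oaz3 was at -1.64 and -1.50 after busulfan and -1.52 and -1.56 with Cus-1. These values overlapped, with a difference between groups of 0.03 (exact permutation p = 1). Overlap was not particular to this list. Against the round spermatid markers Oaz3 was at 2.01 and 1.75 after busulfan and 2.35 and 1.62 with Cus-1, a difference of 0.10. Against the spermatocyte markers it was at 0.69 and 0.08 and then 1.39 and -0.07, a difference of 0.27, also with overlap. Among 9388 genes the nearest patterns to Oaz3 were the protamine gene Prm2 (distance 0.0157), Gapdhs, the glycolytic dehydrogenase of sperm (0.0222), and 1700012A03Rik (0.0318). The median distance was 0.833, but these genes were picked as the smallest distances, so they lie below it by construction. Prm2 and Gapdhs stand on the elongating spermatid list. Gapdhs was at 70.9, 89.8, 308 and 113 FPKM in the libraries busulfan 1 and 2 and Cus-1 1 and 2, close to Oaz3 in level as well. Of the exon bases of Oaz3, 52.1% overlap on the opposite strand with exons of Tdrkh, a piRNA pathway gene chosen after its values were seen, which was at 19.6 and 22.6 FPKM after busulfan and 38.7 and 30.3 FPKM with Cus-1. If strand was not used in counting, reads there cannot be told apart.

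Azin1, the inhibitor of most cells, had little spread within groups, at 54.2 and 55.1 FPKM after busulfan and 65.9 and 63.7 FPKM with Cus-1. Its log2 fold change was 0.24 (SE 0.14, 95% interval -0.11 to 0.59, limma adjusted p = 0.272), with 0.22 to 0.27 when any 1 library was left out and -0.96 when centred on elongating spermatid markers. Azin2 was at 15.6 and 15.5 FPKM after busulfan and at 37.8 and 20.2 FPKM with Cus-1. As with Oaz3, Cus-1 1 was the high library. The log2 fold change was 0.79 (SE 0.31, 95% interval -0.02 to 1.60, limma adjusted p = 0.182), with 0.36 without Cus-1 1, 1.23 without Cus-1 2 and -0.41 when centred on elongating spermatid markers.

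Within a library, log2 Azin2 minus log2 Azin1 was -1.73 and -1.76 after busulfan and -0.79 and -1.61 with Cus-1, a difference of 0.55 (exact two-sided permutation p = 0.333, the smallest possible), with 0.14 without Cus-1 1. Azin2 was at -3.75 and -3.96 relative to the elongating spermatid markers after busulfan and at -4.55 and -3.97 with Cus-1, so it moved less than these markers in Cus-1 1. Relative to the round spermatid markers its values overlapped, at -0.10 and -0.71 after busulfan and -0.69 and -0.79 with Cus-1.

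Odc1, unlike Oaz3 and Azin2 in their levels, was nearly as high in Cus-1 2 as in Cus-1 1. Relative to the spermatocyte markers it was at 1.39 and 0.72 after busulfan and 0.66 and 0.60 with Cus-1, a difference of -0.42 (exact permutation p = 0.333). Relative to the elongating spermatid markers it was at -0.94 and -0.86 after busulfan and -2.24 and -0.90 with Cus-1, with overlap. Whether the germ-cell markers and these members share a cell source was not tested.

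**Figure D3:**
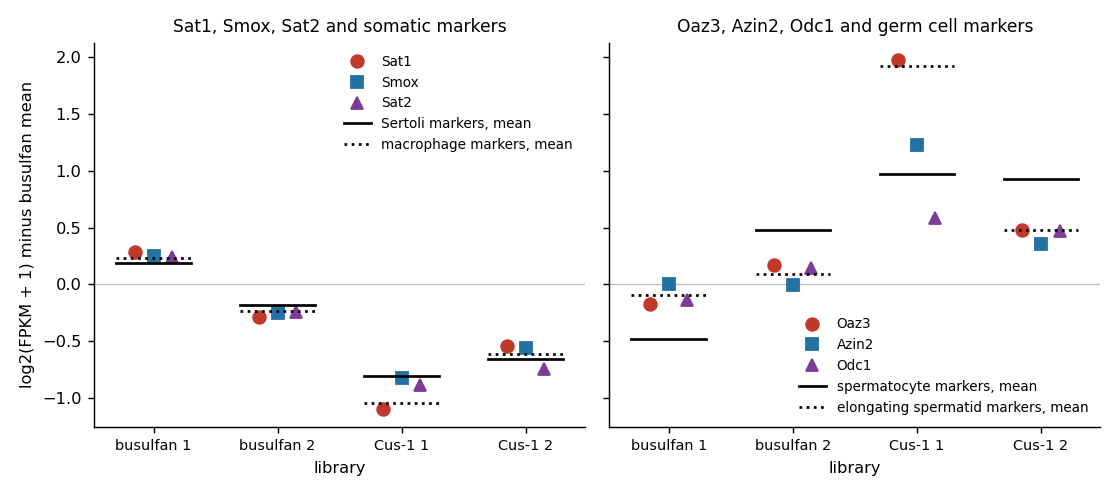
Difference of log2(FPKM + 1) from the busulfan mean in each library, for Sat1, Smox and Sat2 with the mean of Sertoli and macrophage markers (left) and for Oaz3, Azin2 and Odc1 with the mean of spermatocyte and elongating spermatid markers (right); symbols are genes and black bars marker means. Sat1 lies beside the macrophage bar and Oaz3 beside the elongating spermatid bar in every library.

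Taking the 3 antizymes together, the summed level was 358 and 373 FPKM after busulfan and 607 and 411 FPKM with Cus-1. Oaz3 supplied 19.8% and 24.1% of it after busulfan and 52.1% and 27.2% with Cus-1, while Oaz1 supplied 50.0% and 42.5% and then 23.9% and 37.7%. These shares leave out Oaz1-ps. With its FPKM counted as Oaz1, Oaz3 supplied 13.98% and 17.4% after busulfan and 43.8% and 20.6% after Cus-1, and Oaz1 supplied 64.6% and 58.5% and then 36.1% and 52.8%. Such shares are not a correction, because fragments matching both genes may have been counted at each. Oaz2, a broadly expressed antizyme outside the 10 members, was at 108 and 125 FPKM after busulfan and 146 and 144 FPKM after Cus-1 (log2 fold change 0.31 with SE 0.15, limma adjusted p = 0.223). The 2 inhibitors summed to 69.8 and 70.6 FPKM after busulfan and 104 and 83.9 FPKM with Cus-1, Azin2 supplying 22.4% and 22.0% and then 36.5% and 24.1%.

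The order of levels among the members was not the same in the groups. With busulfan Oaz1 was highest (mean 169 FPKM), followed by Odc1 (128 FPKM), Oaz3 (80.3 FPKM), Azin1 (54.6 FPKM) and Sat1 (51.1 FPKM), then Smox, Azin2, Srm, Sms and Paox. Of these neighbours, Azin1 and Sat1 overlapped, as did Azin2 and Srm. With Cus-1 Oaz3 led by its mean (214 FPKM) on the strength of Cus-1 1, while in Cus-1 2 it was below Odc1 and Oaz1. Odc1 (184 FPKM) came next, followed by Oaz1 (150.0 FPKM), Azin1 (64.8 FPKM), Azin2 (29.0 FPKM) and Sat1 (28.5 FPKM), then Smox, Srm, Sms and Paox, with overlap between Oaz3 and both Odc1 and Oaz1, between Azin2 and both Sat1 and Smox, and between Sms and Paox.

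Beyond the 10 members, 24 further genes of polyamine supply, transport and use were listed, of which 17 were tested. Of these, 0 passed the adjusted threshold of limma and 5 were at an unadjusted p under 0.05, 1 higher and 4 lower, beside 28.0% of all tested genes (18.0% higher and 9.96% lower), a share near that of the list. In 16 the groups did not overlap, 5 higher and 11 lower, and the median log2 fold change was -0.27, against 68.4% apart (36.6% higher and 31.7% lower) and a median of 0.04 over all tested genes. The count of 5 was 2 without busulfan 1 and 3 without busulfan 2 or Cus-1 1.

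The tested transport genes included Slc18b1, Atp13a2, Slc47a1 and Slc3a2. Slc18b1, a vesicular polyamine transporter, was at 19.2 and 17.4 FPKM after busulfan and 7.07 and 9.32 FPKM after Cus-1 (log2 fold change -1.08 with SE 0.20, limma adjusted p = 0.152). Atp13a2, a lysosomal polyamine exporter, was at 47.4 and 46.9 FPKM against 29.1 and 30.8 FPKM (-0.64, SE 0.14, limma adjusted p = 0.152), with very little spread in either group. Slc47a1, an organic cation exporter, was at 5.58 and 6.33 FPKM against 3.55 and 3.92 FPKM (-0.55, SE 0.21, limma adjusted p = 0.174). Slc3a2, the most abundant of the transport genes, was at 439 and 449 FPKM against 265 and 382 FPKM.

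Among the remaining roles, Amd1, whose enzyme supplies the aminopropyl groups for SRM and SMS, was at 91.2 and 86.2 FPKM after busulfan and 66.9 and 80.5 FPKM with Cus-1 (-0.27, SE 0.16, limma adjusted p = 0.290). Eif5a, the translation factor that carries hypusine, a residue made from spermidine, was at 409 and 469 FPKM against 532 and 507 FPKM (0.24, SE 0.17, limma adjusted p = 0.357). Its relative Eif5a2 was at 2.43 and 2.79 FPKM against 4.52 and 4.16 FPKM (0.57, SE 0.22, limma adjusted p = 0.177), the 1 higher gene at an unadjusted p under 0.05.

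**Figure D4:**
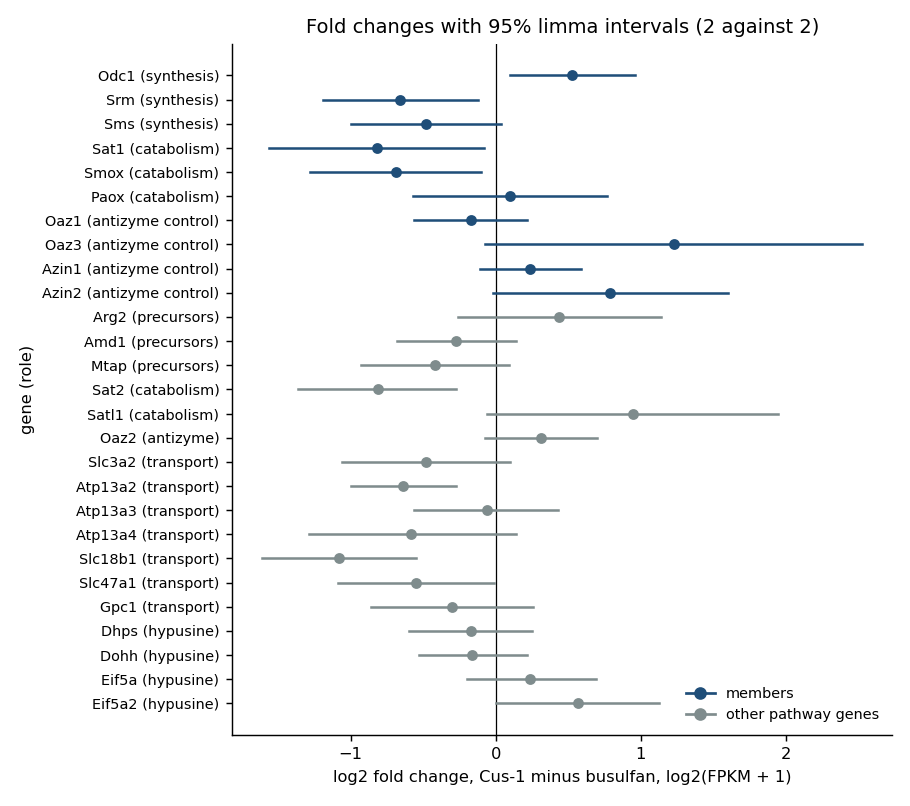
Log2 fold change, Cus-1 minus busulfan on log2(FPKM + 1), of the 10 members and the 17 tested further pathway genes, with 95% limma intervals (2 against 2 libraries, not adjusted for the number of genes). Intervals of Odc1, Srm, Sat1 and Smox leave out 0 among the members, and Oaz3 has the widest interval. Srm and Smox turn positive when centred on Sertoli markers (median of all tested genes 0.77) and Odc1 negative when centred on elongating spermatid markers (median -1.16).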

How the data were processed

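The authors deposited 1 table of FPKM values (fragments scaled to gene length in kilobases and to M mapped fragments) for 4 mouse testis libraries, printed to 2 decimals. The files use mm10, per the submitters' processing notes. For the aligner, counter, annotation, strand setting and gene lengths, the status is: not given in the sources used here. Table columns were matched to samples by the library names in the labels, and groups come from the source label. Rows without a gene name (0.641% to 0.688% of summed FPKM) were left out, and of 115 repeated symbols the row with the highest mean was kept.

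Genes reaching 1 FPKM in 2 or more libraries were tested on log2(FPKM + 1) with limma 3.58.1 in R 4.3.3 (mean-variance trend, two-sided, Benjamini-Hochberg over all 19837 tested genes, threshold 0.05). The code was tested on simulated data. Within-library ratios (42 computed, some of them shares or sums) were compared with an exact permutation test, whose smallest p of 0.333 cannot pass; those other than Oaz3 to Oaz1 and Azin2 to Azin1 were added after values were seen. Positions and transcripts are from GENCODE M21 and promoters from RefSeq, both GRCm38, the build that mm10 names; alignments used Biopython 1.88.

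The 10 members, the 24 further pathway genes and the marker lists were chosen with earlier results of these data known. Named were all members, the most abundant tested gene of each further role, those at an unadjusted p under 0.05 (at most 6), and 3 genes nearest to Sat1 and to Oaz3. Depth was estimated from low values of FPKM times transcript length, over 7997 genes with 1 transcript of 300 to 2000 bases. Between 40 and 120 the tallest peak lay at 72.5 to 78.5, which gives 12.7 to 13.8 M fragments per library if that peak is 1 fragment. Values outside that window were not searched, so the window limits the estimate.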

Additional observations from a re-analysis of the deposited data

How the results depend on the processing

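No paired analysis was possible because the labels give the groups no shared replicate numbers. Of all genes, 0 passed the adjusted threshold of limma in the reported fit (5551 at an unadjusted p under 0.05), 5348 when libraries were centred on Sertoli markers and 24 when centred on elongating spermatid markers, a scaling chosen after seeing the data; leaving out 1 library gave 0 to 7, the 7 without Cus-1 1. Over all genes the median log2 fold change was 0.04 as reported, and 0.77 and -1.16 under these scalings, so directions are relative to that shift. Centred on Sertoli markers, Srm turned to 0.08, Sms to 0.25, Smox to 0.04 and Oaz1 to 0.57, and Odc1 (1.26), Oaz3 (1.96), Azin1 (0.97) and Azin2 (1.52) passed the threshold (limma adjusted p = 0.0438, 0.0491, 0.0459 and 0.0438). Centred on elongating spermatid markers, Odc1 turned to -0.67, Azin1 to -0.96, Azin2 to -0.41 and Paox to -1.10; Paox also turned to -0.02 under quantile normalization and to -0.14 without busulfan 1 (0.34 without busulfan 2). Under these scalings the medians were 0.25 and -1.68 for synthesis, 0.04 and -1.89 for catabolism and 1.25 and -0.68 for antizyme control. The synthesis median was -0.55 with a pseudocount of 0.1, -0.57 under quantile normalization and -0.54 under upper quartile scaling, and -0.54 to -0.41 when 1 library was left out; the other medians ran from -0.94 to -0.44 and from 0.29 to 0.75. Sat1 ran from -2.02 to -0.09 over the alternative runs, with a limma adjusted p of 0.133 to 0.792 where all 4 libraries were kept. Its groups did not overlap, so only the rescalings could have changed its sign, and leaving out 1 library could not. The ratio of Oaz3 to Oaz1 differed by 0.60 to 2.19 and that of Azin2 to Azin1 by 0.14 to 0.96. Of all values recomputed, 171 were labelled the same, 23 moved, 10 reversed and 4 newly passed. For a gene, the same meant an unchanged direction and side of the threshold at any size, as for Sat1 from -0.82 to -0.09. For a count of genes it meant an equal or similar count, and for medians and ratios a move less than the spread between replicates. The 171 is thus no measure of stable sizes. Under the 5 FPKM filter Paox was not tested. With 4 libraries the interval is widest for Oaz3, whose SE of 0.51 is the largest among the members.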

Other observations

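With libraries in the order busulfan 1, busulfan 2, Cus-1 2, Cus-1 1, the FPKM of Odc1, Oaz3 and Azin1 increased at every step and that of Sat1, Smox and Oaz1 decreased at every step, an order noticed in the data. Over all tested genes 23.5% increased and 19.4% decreased at every step. The vesicular and lysosomal transporters Slc18b1 and Atp13a2 stood farther from 0 relative to their standard errors than any of the 10 members. Their 95% intervals were -1.61 to -0.55 and -1.0 to -0.27. When 1 library was left out their log2 fold changes ran from -1.26 to -0.90 and from -0.68 to -0.60. Their groups did not overlap, so leaving out 1 library could not change the sign. The processed pseudogene Sms-ps was listed at 1.89 and 4.0 FPKM after busulfan and 2.21 and 3.26 FPKM after Cus-1, with overlap.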
